A study of Homo sapiens with 6 samples.

Results

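The CADM and NCAM genes encode adhesion proteins of the immunoglobulin superfamily, and the 6 members described here are CADM1, CADM2, CADM3, CADM4, NCAM1 and NCAM2. They were chosen by name out of 19970 protein-coding genes, with earlier results of these data known. Their binding regions were chosen by position, from the authors' peaks of FLAG-tagged GSX2. A peak belonged to a gene when the gene was the nearest protein-coding span to the peak's strongest summit, the one of highest fold enrichment, and overlapping peaks of different replicates were merged into 1 region. This gave 44 regions of 15743 in the whole data set, from 27, 28 and 23 of the 9859, 7471 and 9122 peaks of replicates 1, 2 and 3. Peak calls and fold enrichment therefore defined the regions, and their counts and levels are given as a description without a test.

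The data came from H9, a human embryonic stem cell line, differentiated toward progenitors like those of the lateral ganglionic eminence (LGE), the embryonic forebrain domain that forms the striatum. The medium contained LDN193189, SB431542 and XAV939, then LDN193189 and SB431542, then IWP2 and Activin A. All cells carried TRE3G 2xFLAGGSX2 WT, a transgene for wild-type GSX2, and all received 100 ng/mL doxycycline for 12 hours from day 10. Chromatin of day 10.5 was precipitated with the M2 FLAG antibody in 3 replicates. There was 1 group with values and no contrast between conditions. The 3 input libraries were not used here, and no cells without the transgene or without doxycycline were analysed. The protein seen is a tagged protein expressed from an inducible promoter, on top of any GSX2 the cells made themselves. The labels do not say whether the replicates were separate cultures or how many clones were used. Read counts are not part of the lists, and the sequencing depth behind each value is unknown.

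CADM proteins, also called SynCAMs or nectin-like proteins, bind each other across the gap between cells, as pairs of the same or of different family members, and help to organise synapses and the contact between axons and myelinating glia. NCAM1 and NCAM2 mediate adhesion between neural cells through immunoglobulin and fibronectin type III domains. NCAM1 is the main carrier of polysialic acid, a sugar chain that loosens adhesion and is abundant on migrating neuroblasts of the developing and adult forebrain. GSX2 is a homeodomain protein, a class whose preferred sites contain the core TAAT.

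The promoter sequences at hand (RefSeq, GRCh38.p14) cover CADM3, CADM4 and NCAM2. These are the only member promoters at hand, and none of their start sites carried a peak in any replicate. Each runs 5′ to 3′ on the gene's strand, from 250 bases before the start site to 50 after it, with TAAT on either strand (TAAT or ATTA as printed) in capitals. The windows are chr1:159171365-159171664 (plus strand) for CADM3, chr19:43639801-43640100 (minus strand) for CADM4 and chr21:21146912-21147211 (plus strand) for NCAM2.
CADM3: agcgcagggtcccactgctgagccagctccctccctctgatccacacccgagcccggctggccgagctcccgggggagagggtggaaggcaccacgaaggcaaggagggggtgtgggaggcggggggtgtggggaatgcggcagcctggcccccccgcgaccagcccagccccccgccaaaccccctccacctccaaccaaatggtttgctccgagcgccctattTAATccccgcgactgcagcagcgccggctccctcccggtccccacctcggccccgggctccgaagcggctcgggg
CADM4: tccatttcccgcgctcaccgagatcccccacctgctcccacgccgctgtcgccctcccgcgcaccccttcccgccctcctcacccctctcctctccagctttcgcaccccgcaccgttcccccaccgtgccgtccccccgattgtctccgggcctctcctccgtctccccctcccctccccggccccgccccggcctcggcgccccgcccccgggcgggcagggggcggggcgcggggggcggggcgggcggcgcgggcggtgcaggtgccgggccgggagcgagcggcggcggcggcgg
NCAM2: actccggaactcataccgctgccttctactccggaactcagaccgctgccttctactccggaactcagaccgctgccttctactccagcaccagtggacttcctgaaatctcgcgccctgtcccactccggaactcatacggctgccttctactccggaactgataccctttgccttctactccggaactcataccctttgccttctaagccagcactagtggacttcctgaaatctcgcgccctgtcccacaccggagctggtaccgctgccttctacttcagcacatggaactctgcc
The CADM3 window held 1 TAAT, starting 25 bases before the start site, and the CADM4 and NCAM2 windows held 0. The longer word TAATTA was in none of the 3. Among the 15811 protein-coding promoters of this length in the table, 42.0% held TAAT on either strand and 3.35% held TAATTA, every TAATTA containing TAAT as well. GC content was 72.3% in the CADM3 window, 81.0% in the CADM4 window and 56.7% in the NCAM2 window, against a median of 62.7% over all. From these start sites the nearest summit of any replicate was 5.85 kb away for CADM3, 1216 kb for CADM4 and 149 kb for NCAM2. The NCAM2 start site printed here lies inside the gene span. Its nearest region lay at the low-coordinate end of that span, with the summit 115 bp outside. That region had 4.58 and 5.20-fold enrichment in replicates 1 and 2.

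GSX2 regions were unevenly spread over the family. CADM1 had 16 regions, NCAM2 13, CADM2 10, NCAM1 4, CADM3 1 and CADM4 0. Regions with a peak in all 3 replicates numbered 7 at CADM1, 4 at NCAM2, 2 at CADM2, 1 at CADM3 and 0 at NCAM1 and CADM4. So 4 of 6 members were nearest to at least 1 region of all 3 replicates, where 12.3% of all protein-coding genes were, and 5 of 6 were nearest to a region of any replicate, where 32.6% were. Several members lie in large gene-poor stretches, so these shares are not like for like. The members were also chosen with earlier results known, so the shares are a description only. Of the 44 regions, 14 were found in all 3 replicates (31.8%, 95% Wilson interval 20.0 to 46.6%), 5 in 2 replicates and 25 in 1. Over all regions, these 44 included, 22.5% were found in all 3. The interval covers counting error only and treats the regions as independent, though they lie at 5 genes. It was not used as a test. Median fold enrichment at the regions of all 3 replicates was 9.01 for the members and 9.49 over all 3537 such regions.

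**Figure D1:**
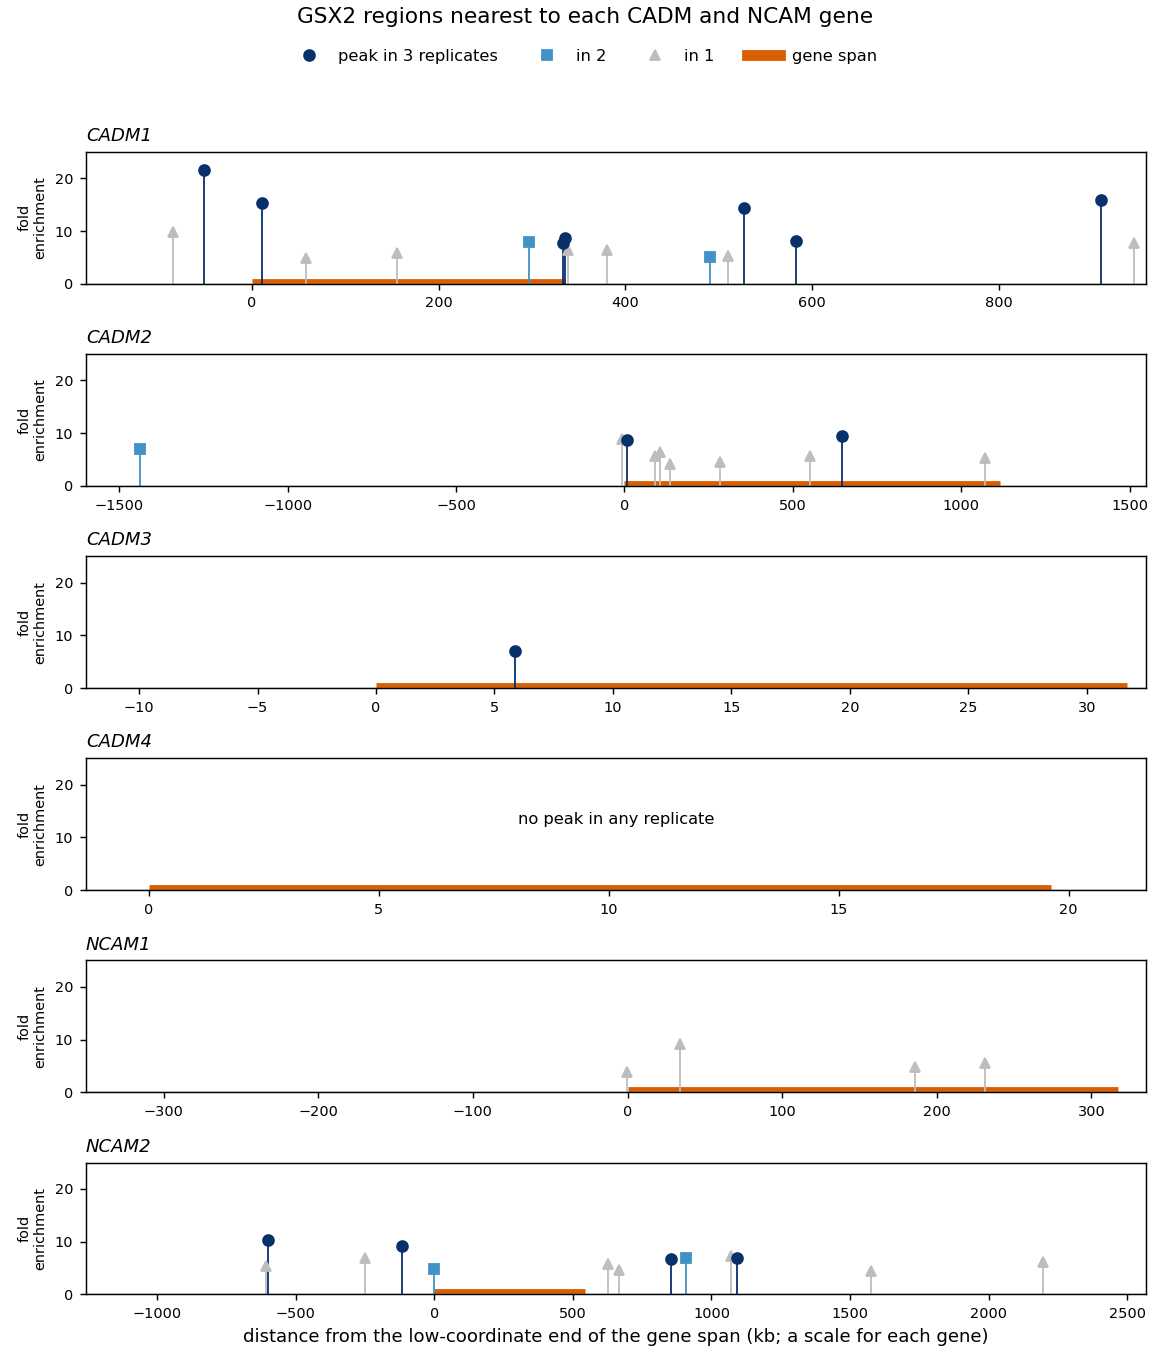
Regions nearest to each of the 6 genes, drawn over the stretch in which the gene is nearest. The x axis gives distance in kb from the low-coordinate end of the gene span, on a scale of its own for each gene; the y axis gives fold enrichment, averaged over the replicates with a peak; symbols give the number of replicates with a peak. CADM1 has 7 regions of all 3 replicates, up to 21.6-fold, NCAM1 has only regions of 1 replicate, and CADM4 has none.

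The territory of a gene, the stretch over which it is the nearest protein-coding gene, puts these counts on one scale. The average over the covered genome was 1.17 regions of all 3 replicates per Mb. CADM1, with a territory of 1.13 Mb, had 7 such regions or 6.17 per Mb, where the average density would give 1.33. NCAM2 had 4 in 3.82 Mb, 1.05 per Mb, where the average would give 4.47. CADM2 had 2 in 3.15 Mb, 0.636 per Mb, where the average would give 3.68. NCAM1, with 0.685 Mb, had 0 where the average would give 0.802. The CADM3 territory of 44.7 kb and the CADM4 territory of 23.0 kb would be given 0.0523 and 0.0269 regions, and they held 1 and 0. CADM1 and CADM3 were above the average, CADM3 by a single region. A count of 7 or more was reached by 13 of 19970 protein-coding genes (0.0651%), CADM1 included, and 9 genes had more than 7. This share does not allow for territory, whose median over all protein-coding genes was 55.0 kb, far below the 1.13 Mb of CADM1. Over the 6 members together, 14 regions were found where the average density would give 10.4, and 7 of the 14 were at CADM1. Gene density, open chromatin and base composition differ along the genome, and their part in these densities was not tested.

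**Figure D2:**
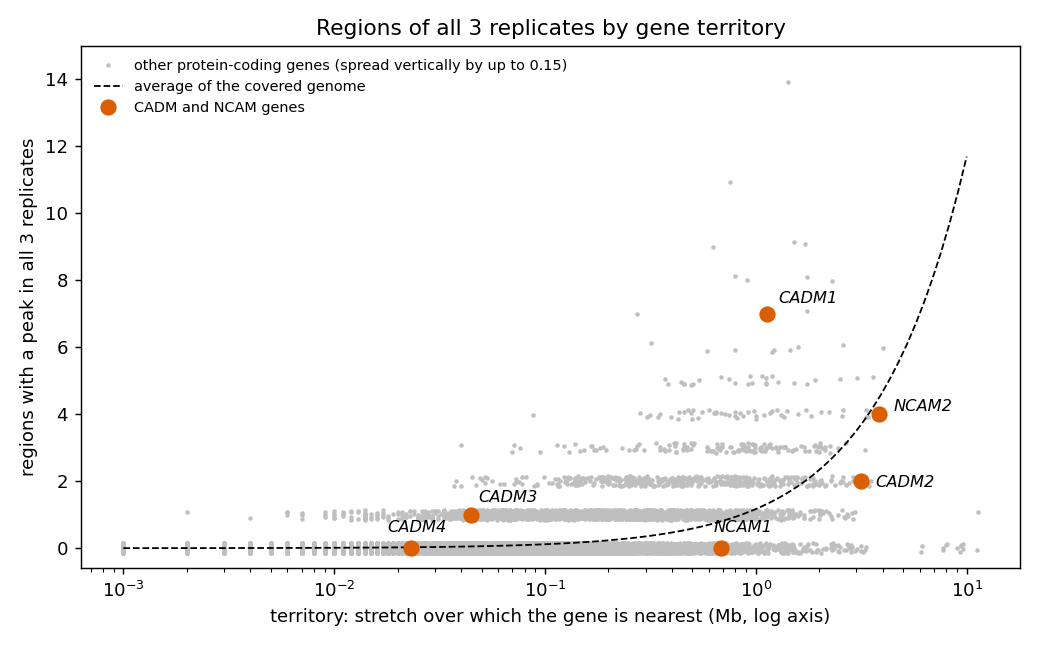
Number of regions with a peak in all 3 replicates against territory in Mb (log axis) for the 6 members, in orange, and for all other protein-coding genes, in grey. The dashed line is the average of the covered genome, 1.17 per Mb. CADM1 lies above the line with 7 regions in 1.13 Mb, NCAM2 lies close to it, and CADM2 and NCAM1 lie below it.

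CADM1, a synaptic adhesion protein that also acts as a tumour suppressor in epithelia, held the strongest regions of the family. Its span is chromosome 11, 115169236 to 115504415 (hg38), between NXPE2 and BUD13. The strongest region (chromosome 11, 115117985 to 115118571) lay 50.9 kb outside the low-coordinate end of the span. It had fold enrichments of 18.3, 19.9 and 26.7 in replicates 1, 2 and 3. The mean was 21.6 ± 4.5 (SD, n = 3, as for the means that follow). This placed it at rank 113 of the 3537 regions of all 3 replicates, with 96.8% of them weaker. Replicate 3 was the highest by a clear step, and the summits of the 3 replicates lay within 10 bp of each other.

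A further 3 strong CADM1 regions lay inside the gene and past its high-coordinate end. Inside the span, 11.2 kb from its low-coordinate end, a region (115180182 to 115180626) had 16.4, 15.3 and 14.0-fold enrichment, a mean of 15.2 ± 1.2, the smallest relative spread among the 14 regions. A region 191 kb past the high-coordinate end (115695536 to 115696008) had 11.8, 16.6 and 14.8-fold, a mean of 14.4 ± 2.4. The farthest CADM1 region of all 3 replicates was 574 kb past that end (116078248 to 116078765), with 17.1, 19.2 and 11.4-fold, a mean of 15.9 ± 4.0. These 3 means differed by less than the spread between replicates. All 4 of the strong CADM1 regions were above at least 86.1% of the regions of all 3 replicates. In each replicate they were higher than every CADM2, CADM3 and NCAM2 region of all 3 replicates, except that in replicate 1 the region at 191 kb had 11.8-fold and the highest NCAM2 region 12.1-fold.

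The remaining 3 CADM1 regions of all 3 replicates were weaker. CADM1 is transcribed from the minus strand, so its transcripts start at the high-coordinate end of the span. There a region (115504211 to 115504649) had its strongest summit 31 bp outside the span, with 8.01, 7.22 and 11.1-fold, a mean of 8.77 ± 2.03. A neighbour 2.48 kb away, inside the span (115501783 to 115502446), had 6.76, 9.09 and 7.19-fold, a mean of 7.68 ± 1.24. The third lay 247 kb past the end (115751582 to 115751872), with 6.42, 8.79 and 8.96-fold, a mean of 8.05 ± 1.42. Their replicate ranges overlapped, and 24.2 to 40.1% of the regions of all 3 replicates were weaker. The region at the CADM1 end was the only one of the 14 within 1 kb of either end of a protein-coding gene. Over all regions of 3 replicates 7.61% were.

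Another 9 CADM1 regions were found in fewer replicates. A region inside the span, 38.1 kb from the high-coordinate end, had 9.03 and 6.74-fold in replicates 2 and 3, and one 156 kb past that end had 5.17 and 4.81-fold in the same replicates. The other 7 were in 1 replicate, with 4.86 to 9.82-fold, and 5 of them came from replicate 1. The strongest of these was 84.7 kb outside the low-coordinate end, in replicate 2 alone. The 16 regions spanned 1030 kb, and the first region past the territory on either side belonged to NXPE2 (11.8-fold in all 3 replicates, 279 kb from CADM1 and 76.2 kb from NXPE2) and to BUD13 (4.86-fold in 1 replicate, 658 kb from CADM1 and 586 kb from BUD13). The last region assigned to CADM1 on the BUD13 side was 610.0 kb away, with 7.81-fold in replicate 1. Of the 7 CADM1 regions of all 3 replicates, 3 had a noncoding gene nearer than CADM1, 2 of them inside LINC02698 and 1 inside LOC105369513.

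CADM2, a brain-enriched relative of CADM1, is the longest of the genes, with a span of 1115 kb (chromosome 3, 84958989 to 86074429). Both of its regions of all 3 replicates were inside the span. One lay 9.04 kb from the low-coordinate end, where transcription of this plus-strand gene starts (84967656 to 84968475), with 11.1, 5.19 and 9.88-fold, a mean of 8.72 ± 3.11. Replicate 2 was the lowest there, and the highest value was 2.13 times the lowest, the widest ratio among the 14 regions. The other lay 646 kb into the gene (85604944 to 85605216), with 8.02, 12.1 and 8.11-fold, a mean of 9.41 ± 2.32, and there replicate 2 was the highest. The 2 means differed by less than their spread. Of all 10 CADM2 regions, 8 were inside the span, where the average density over the genome would give 5.81. Over the whole CADM2 territory the average would give 16.4. The other CADM2 regions were in 1 replicate, at 4.12 to 8.81-fold, except one in replicates 1 and 3 that lay 1438 kb before the gene (8.38 and 5.47-fold).

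CADM3 and CADM4, which pair across the contact between axons and myelinating glia, differ from CADM1 and CADM2 in being short genes among close neighbours. CADM3 (chromosome 1, 159171615 to 159203313) held 1 region, 5.85 kb into the gene (159177326 to 159177555), with 4.86, 6.78 and 9.31-fold, a mean of 6.99 ± 2.23. Replicate 1 was the lowest and replicate 3 the highest, and only 14.2% of the regions of all 3 replicates were weaker. CADM4 (chromosome 19, 43622368 to 43641984) had no peak in any replicate, and the nearest summit of any replicate lay 1198 kb from it. Without read counts, a site too weak for the authors' threshold cannot be told from no binding.

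NCAM1, the carrier of polysialic acid, had no region that recurred. Its span is chromosome 11, 112961420 to 113278436, and all 4 of its regions came from replicate 2, which had the shortest peak list. The average density of all regions would give 3.57 over the NCAM1 territory and 1.65 in the span, which held 3. Of 61 protein-coding genes with at least 4 regions and none in more than 1 replicate, 4 had them all from the same replicate, and NCAM1 was the only one with replicate 2. The limit of 4 was NCAM1's own count, so this gives no measure of how unusual NCAM1 is. Over all regions, 1983 of the 8638 of 1 replicate came from replicate 2. The strongest NCAM1 region lay 34.2 kb into the gene (112995569 to 112995782) with 9.19-fold. Of 2346 regions at least as strong in replicate 2, 76.9% were found in all 3 replicates and 6.82% in replicate 2 alone. A further pair, 186 and 231 kb into the gene, had 4.84 and 5.56-fold. The fourth, with 3.83-fold and a −log10 q of 3.03 near the lists' lowest value of 3.00, had its summit 75 bp before the span, where transcription of this plus-strand gene starts. It lay inside NCAM1-AS2, an antisense gene. The nearest region of all 3 replicates was 255 kb past the other end and belonged to DRD2, the dopamine D2 receptor gene of striatal neurons, with 22.1-fold.

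NCAM2, a relative of NCAM1 best known from olfactory axons, had all of its 13 regions outside the gene. The span of 545 kb (chromosome 21, 20998409 to 21543329) held no peak of any replicate, where the average density of all regions would give 2.84, and 19.9 over the whole territory. The territory is a gene desert of 3.82 Mb, of which the span makes up 14.3%. No region of NCAM2 was above 10.3-fold on average. On the low-coordinate side a region 599 kb away (20398931 to 20399238) had 12.1, 8.39 and 10.3-fold, a mean of 10.3 ± 1.8. Nearer the gene, at 116 kb, a region (20882473 to 20882793) had 10.3, 9.76 and 7.69-fold, a mean of 9.25 ± 1.38. These 2 differed by less than the spread between replicates.

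On the other side of NCAM2, 2 weaker regions recurred. At 308 kb (21851651 to 21852054) the values were 6.49, 8.48 and 5.38-fold, a mean of 6.78 ± 1.57. At 546 kb (22089102 to 22089475) they were 8.45, 7.92 and 4.45-fold, a mean of 6.94 ± 2.17, and the summits lay 86 bp apart, the widest spread among the 14 regions. Replicate 3 was the lowest at both, and 12.4 and 13.9% of the regions of all 3 replicates were weaker. A region with its summit 115 bp before the span (20998112 to 20998400) had 4.58-fold and 5.20-fold in replicates 1 and 2 and no peak in replicate 3. Another, 364 kb past the other end, had 7.90 and 5.88-fold in replicates 1 and 3, and the remaining 7 were in 1 replicate at 4.53 to 7.32-fold. The promoter window printed above belongs to another start site, inside the span. Each of the 4 NCAM2 regions of all 3 replicates had a noncoding gene or pseudogene nearer than NCAM2, so their assignment to NCAM2 rests on counting protein-coding genes only.

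**Figure D3:**
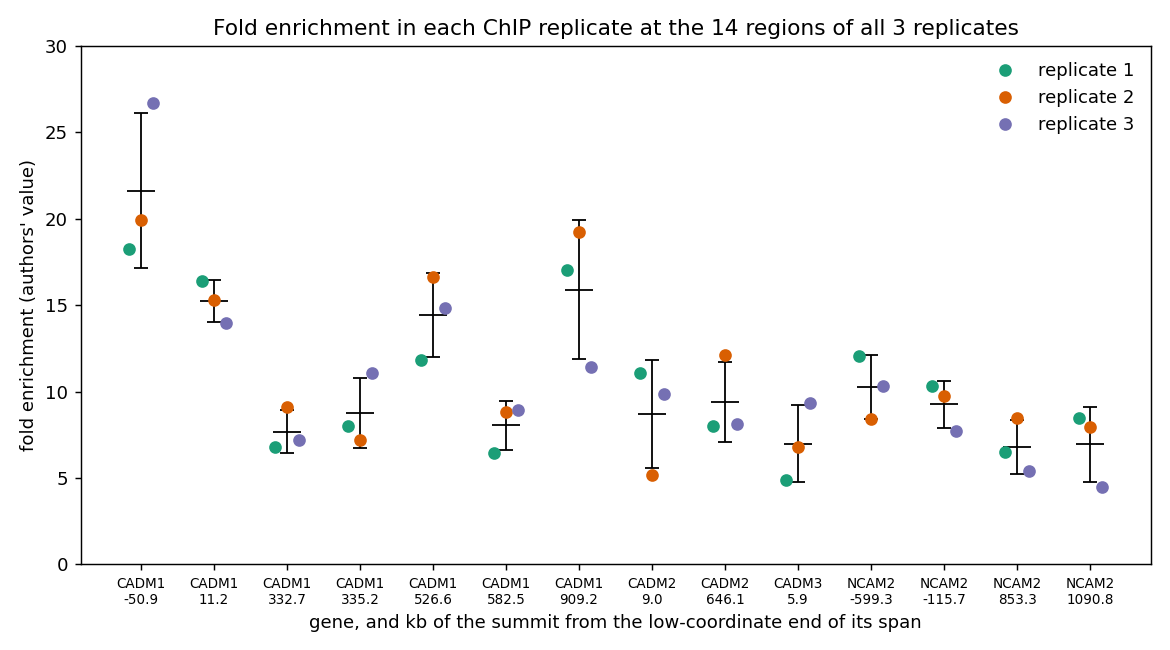
Fold enrichment in replicates 1, 2 and 3 (dots) at the 14 regions of all 3 replicates, with the mean (bar) and SD over the 3 replicates (whiskers). The x axis names the gene and the summit's distance in kb from the low-coordinate end of its span. 4 CADM1 regions have means of 14.4 to 21.6, and the other 10 regions have means of 6.78 to 10.3.

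The merging of overlapping peaks limits how far the summits of a region can lie apart. Across the 14 regions, summits of the 3 replicates lay a median of 23.5 bp apart, with a range of 10 to 86 bp, and a median of 30.0 bp over all 3537 regions. The coefficient of variation of fold enrichment had a median of 21.9%, against 19.5% over all. The highest replicate was replicate 1 at 5 regions, replicate 2 at 5 and replicate 3 at 4. As a description over 14 sites that share the same libraries, the Spearman coefficient of fold enrichment was 0.59 between replicates 1 and 2, 0.67 between 1 and 3, and 0.46 between 2 and 3. Of the 14 regions 5 were inside a protein-coding gene (35.7%), against 51.3% over all regions of 3 replicates, and 7 were over 100 kb from the gene, against 20.6% over all. The 7 lay at CADM1 and NCAM2, whose territories of 1.13 and 3.82 Mb are far above the median of 55.0 kb over all protein-coding genes. The shares inside and far from a gene are therefore not like for like. Single-summit peaks were the rule, and 1 of the 44 regions held a peak of several summits, against 596 of all 15743 regions.

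Other adhesion genes of the immunoglobulin superfamily, a list of 27, had 12 members (44.4%) nearest to a region of all 3 replicates, where 12.3% of all protein-coding genes were. Of the others, 5 were genes with regions of 2 replicates at most, 2 with regions of 1, and 8 with none. Together they had 24 regions of all 3 replicates in 21.2 Mb of territory, or 1.13 per Mb, close to the genome average of 1.17. The list was drawn up with earlier results of these data known, so its share is a description only. The highest count was 4, at CNTN3 and at SDK2. CNTN3, a contactin, held them in 1195 kb, or 3.35 per Mb, and SDK2, a sidekick protein of synaptic layers, in 600.0 kb, or 6.67 per Mb, above the 6.17 per Mb of CADM1. The strongest regions were those of ALCAM, the activated leukocyte adhesion molecule (19.6 ± 0.5-fold, 114 kb away), CNTN4, a contactin (16.9 ± 0.7-fold, inside the gene), CNTN6, a contactin (15.9 ± 5.6-fold, 85.1 kb away), and SDK1, a sidekick protein (15.7 ± 2.7-fold, inside the gene). The nectins, the nearest relatives of the CADM proteins, had regions of all 3 replicates at NECTIN3 alone (2 regions), and NECTIN1, NECTIN2 and NECTIN4 had no peak. The NECTIN3 territory was 1162 kb, and those of NECTIN1, NECTIN2 and NECTIN4 were 389, 57 and 24 kb. These counts are therefore not like for like.

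Of 9 genes for enzymes and partners of NCAM1 or CADM1, 5 had a region of all 3 replicates, where 12.3% of all protein-coding genes had one. The 9 territories ran from 46 to 872 kb, against a median of 55.0 kb over all protein-coding genes. These shares are therefore not like for like. The 9 genes had 8 regions of all 3 replicates in 3.61 Mb of territory. That is 2.22 per Mb, against the genome average of 1.17. This list was also drawn up with earlier results of these data known, so the values are a description only. Both polysialyltransferase genes were among the 5 with such a region. ST8SIA2, prominent in the embryonic brain, had 1, with 14.4, 17.0 and 17.2-fold (16.2 ± 1.5, 30.4 kb from the gene). ST8SIA4, the other enzyme that adds polysialic acid to NCAM1, had 3, the strongest at 9.35, 6.87 and 9.44-fold (8.55 ± 1.46, 524 kb away). GFRA1, a GDNF receptor that can signal with NCAM1, had 2, up to 11.1 ± 1.2-fold at 4.65 kb, and FYN, a kinase downstream of NCAM1, had 1 of 11.1 ± 1.8-fold inside the gene. FGFR1, a receptor that NCAM1 engages, had the strongest region of the 9 genes, inside the gene, with 19.0, 20.0 and 20.8-fold (19.9 ± 0.9). GFRA1 had the highest density of the 9, 6.73 per Mb. The CADM1 partner genes CASK, EPB41L3 and FARP1 had regions of 1 replicate only, and MPP3 had none.

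**Figure D4:**
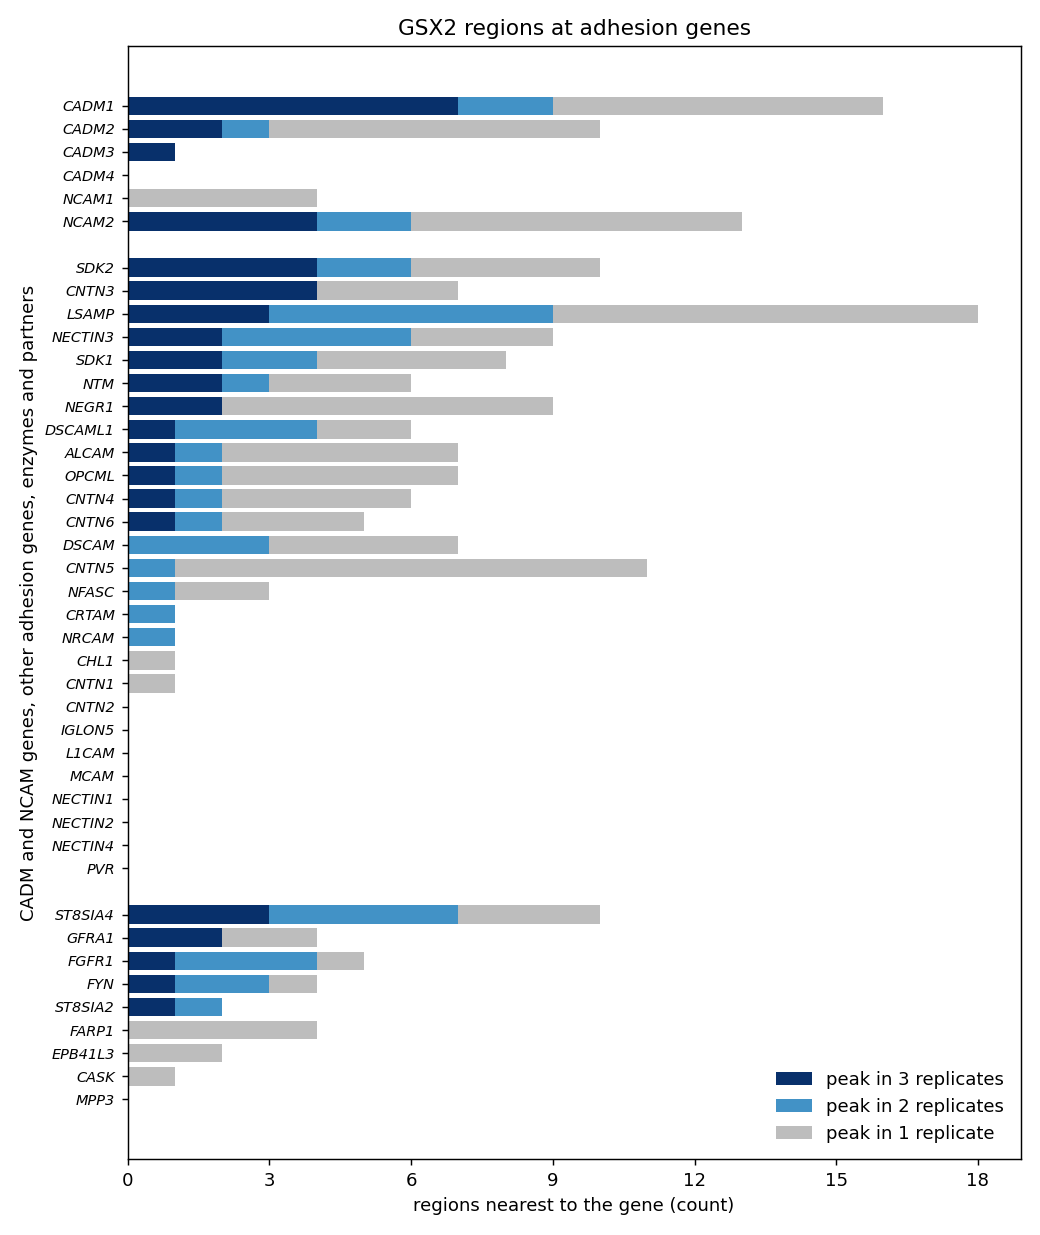
Number of regions nearest to each gene, split by the number of replicates with a peak, for the 6 members (top), 27 other adhesion genes (middle) and 9 enzymes and partners (bottom). CADM1 has the most regions of all 3 replicates, 7, and the next counts are 4 at NCAM2, SDK2 and CNTN3.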

How the data were processed

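Values came from 3 peak lists, 1 for each FLAG ChIP replicate, called by the authors in each replicate separately. MACS3, Bowtie2, Trim Galore, deepTools and SAMtools are named in the submitters' processing notes, with hg38 as the build. The sources used here give no version or setting, and do not say what part the input had in peak calling. In the deposited lists fold enrichment is a ratio (linear, relative to the background that the caller modelled), with −log10 p and −log10 q beside it. The lowest deposited −log10 q was 3.00, so weaker sites are not in the lists. The deposited score, 10 times the −log10 q, was not used.

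Lines of the same interval were reduced to the summit of highest fold enrichment. Chromosomes 1 to 22 and X were kept, which left out 281 lines. Each interval was assigned to the nearest protein-coding span of RefSeq (GRCh38.p14, the same build as hg38). Intervals overlapping by at least 1 bp were merged, and the highest value of each replicate was kept. Territories were measured to the midpoint between neighbouring spans, and for all genes on a 1 kb grid. Python 3.11.15, pandas 2.3.3 and scipy 1.17.1 were used. Merging was tested on simulated peaks of well-separated sites, and closely spaced sites were not simulated. For the assignment, only the distance to the nearest gene was checked, at random positions of 1 chromosome. The table gives no strand except in its promoter windows. The strands of CADM1, CADM2 and NCAM1 are background knowledge.

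The members and lists were chosen with earlier results of these data known. All 6 members and all regions of 3 replicates were named, and from the other adhesion genes the 4 with the strongest region and those with the most regions. The nectins and the enzymes and partners were named in addition. No test was run, because there is 1 group. Alternatives were the overlap, a minimum −log10 q of 10, the rule of the nearest gene, the choice of summit, and leaving out each replicate.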

Additional observations from a re-analysis of the deposited data

How the results depend on the processing

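Counts moved most under 2 of the alternatives tried. With peaks of −log10 q of at least 10, 20 regions were assigned to the members, 7 of them of all 3 replicates (4 at CADM1, 2 at NCAM2 and 1 at CADM2), against 44 and 14 as reported. With the nearest gene of any type, noncoding genes included, 24 regions remained assigned to the members and 7 of them were of all 3 replicates (4 at CADM1, 2 at CADM2 and 1 at CADM3), so NCAM2 had 0. A merge at 50% of the shorter peak gave 46 and 14. The nearest gene end and the use of every summit gave 44 and 14 each. Leaving out 1 replicate gave 34 to 39 regions, against 44 as reported. Of these, 15 to 16 were found in both remaining replicates, a looser requirement than all 3, with 4 members in each case. CADM1 then had 9 without replicate 1 and 7 without replicate 2 or 3, and NCAM1 and CADM4 had 0 under every setting. The median of the mean fold enrichments was 9.01, and 9.01 to 9.27 without a replicate. No paired analysis was possible because the input libraries that share the replicate numbers have no values here. The lists hold no read counts, so how depth limits the weak and missing peaks is unknown.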

Other observations

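Over the whole promoter table, the TAAT core was more frequent in promoter windows that overlapped a region of all 3 replicates than in those that overlapped none. It was present in 75.6% of the 119 protein-coding promoter windows that overlapped a region of all 3 replicates and in 40.9% of the 15180 that overlapped no region. TAATTA was present in 10.1% and 3.16% of them. Median GC content was 58.7% in the overlapping windows and 63.0% in the others, and its part in the difference was not tested. The 3 printed windows of CADM3, CADM4 and NCAM2 are among the 15180.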
